A study of Mus musculus with 8 samples.

Results

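Sarcoplasmic reticulum calcium cycling was examined through 10 genes: the calcium pumps Atp2a1 and Atp2a2, the pump inhibitors Pln and Sln, the release channel Ryr2, and the store and release-complex genes Casq1, Casq2, Trdn, Hrc and Jph2. They were taken by Entrez number and symbol from a table of read counts for 23282 genes in mouse hearts, and all 10 were present and passed the filter on low counts. RNA-seq compared 4 wild-type hearts with 4 AE3-null hearts, all from male mice of the FVB/N strain at 4 months of age. AE3-null mice lack the chloride/bicarbonate exchanger AE3, which is encoded by Slc4a3 and sits in the surface membrane of heart muscle cells. The labels name no drug or other treatment, and they do not say how the null allele was made. The labels do not tie each library to its own mouse, so a p-value here reflects how these libraries varied, which may in part be technical.

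The sarcoplasmic reticulum is the internal calcium store of muscle. At each heartbeat calcium that enters through surface channels opens ryanodine receptors on the store, calcium leaves it to switch on contraction, and SERCA pumps bring it back during relaxation. Phospholamban and sarcolipin are small membrane proteins that bind the pump and slow it, and phosphorylation of phospholamban lifts its inhibition when the heart is stimulated by adrenaline. Inside the store, calsequestrin and histidine-rich calcium-binding protein bind calcium, and triadin ties calsequestrin to the release channel. Junctophilin holds the store membrane against the surface membrane so that channels on both sides can face each other.

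The libraries held 9133628 to 27078351 counts. Levels are given as CPM, counts per 1000000 counts of a library total scaled with TMM factors. Slc4a3 lay between 378 and 388 CPM in wild-type hearts and from 31.5 to 34.6 CPM in the AE3-null ones, so each library matched its label (log2 -3.54, edgeR adjusted p 2.81e-19). The hearts carried their defining muscle genes: the summed level of 7 cardiomyocyte markers (Myh6, Actc1, Tnnt2, Tnni3, Ttn, Mybpc3 and Actn2) was 82345 to 91159 CPM in wild-type and 81979.5 to 88608 CPM in AE3-null libraries. Of these 7 genes 1 was called, Tnnt2, which was higher with no overlap between genotypes (log2 0.12, edgeR adjusted p 0.0423). Of the other lists, the sum of atrial cardiomyocyte markers was higher, and those of endothelial and red blood cell markers lower, in every AE3-null library than in every wild-type library. Summed endothelial levels were 1310.2 to 1424 CPM in wild-type and 1131 to 1214 CPM in AE3-null libraries, and red blood cell levels 2412 to 3838 and 1671 to 2319.6 CPM. Of single markers, 3 of 8 endothelial genes fell and 0 of the 4 tested red blood cell genes was called by edgeR (by unadjusted p under 0.05, 3 were lower). Smooth muscle, fibroblast and macrophage sums overlapped between genotypes, with 1 of 6 genes risen, 1 of 8 fallen and 0 of 7 called. Over all tested genes 6.47% were called, 3.16% as higher and 3.31% as lower. A single call in a list this short cannot be told apart from that share. The part of the marker differences in the results was not tested. Wild-type replicate 3 stood apart: chi-square per gene was 6.33 to 7.4 for its pairs with other wild-type libraries and 4.83 to 5.18 for the remaining wild-type pairs. In RNA from heart tissue, fewer cells of a type cannot be told apart from less RNA per cell.

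The 10 genes made up 3.21% to 3.31% of all counts in each library. Levels between genes were compared per length, as CPM per kb of annotated exon, with lengths from all coding transcripts of a gene in GENCODE M21. On this scale the pump Atp2a2, which encodes SERCA2, the main SERCA of heart muscle, stood highest, at 3936 ± 71.1 CPM per kb in wild-type and 3737 ± 85.0 in AE3-null hearts (SD, n = 4, here and for the levels that follow). Pln came next at 1964 ± 44.6 and 2163 ± 52.0 CPM per kb. Then came Hrc at 531 ± 11.1 and 485 ± 10.4, and Casq2 at 311 ± 12.4 and 318 ± 8.06 CPM per kb. The inhibitor phospholamban thus had the second-highest transcript level of the set, ahead of every store protein gene. Jph2 was at 207 ± 13.9 and 179.7 ± 5.91, the release channel Ryr2 at 173 ± 6.33 and 169 ± 4.43, and Sln at 121 ± 4.67 and 149.9 ± 9.86 CPM per kb. Casq1, the calsequestrin best known from skeletal muscle, was at 48.9 ± 8.72 and 46.0 ± 3.28, and Trdn at 31.9 ± 1.81 and 32.2 ± 2.13 CPM per kb. Trdn has several coding transcripts of unequal length, and the counts do not separate them. Atp2a1, which encodes SERCA1, the pump of fast skeletal muscle, was lowest at 0.517 ± 0.106 and 0.437 ± 0.116 CPM per kb. The order of the 10 genes was the same in all 8 libraries. Ranges of neighbours in that order were apart within each genotype, except that in AE3-null hearts Jph2 (172 to 185 CPM per kb) overlapped Ryr2 (165 to 175 CPM per kb).

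**Figure D1:**
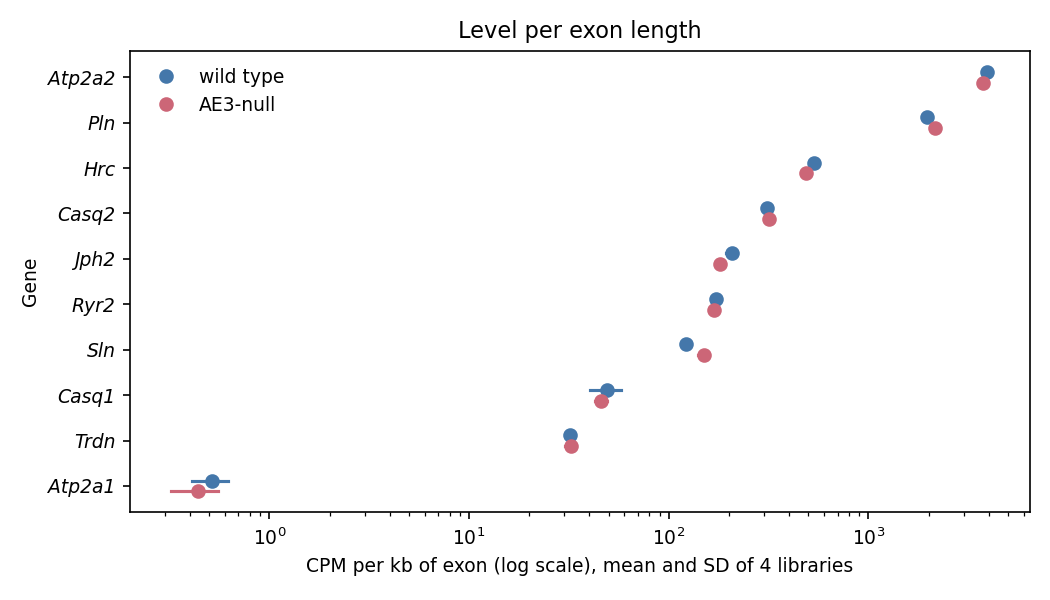
Level of each gene in CPM per kb of annotated exon on a log axis, as the mean (point) and SD (line, hidden where smaller than the point) of 4 wild-type and 4 AE3-null libraries. Atp2a2 and Pln stand at the top and Atp2a1 at the bottom in both genotypes, with small shifts between genotypes against a wide range between genes.

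Both pump inhibitors were higher and 2 store genes, Hrc and Jph2, were lower in AE3-null hearts, while the pumps, the release channel, both calsequestrins and triadin did not pass the test. Of the 10 genes 2 rose and 2 fell at an edgeR adjusted p under 0.05. Over all 14136 tested genes 6.47% were called, 3.16% as higher and 3.31% as lower (447 and 468 genes; with scaling by total counts only, 528 and 361). The genotypes did not overlap for 5 of the 10 genes, the 4 called ones and Atp2a2, against 12.2% of all tested genes. AE3-null libraries lay above for 2 of the 10 (6.1% of all tested genes) and below for 3 (6.15%). The 10 genes were chosen with earlier results of these data known, so the contrasts with these shares are no independent support. The median log2 fold change of the 10 genes was -0.057, and that of all tested genes was -0.00179. Fold changes ran from a log2 of -0.20 for Jph2 to 0.31 for Sln. Without wild-type replicate 3 the same directions were called by edgeR for Pln (log2 0.16), Sln (0.31), Hrc (-0.12) and Jph2 (-0.22). That fit called more genes in general, 818 higher and 906 lower over all tested genes.

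**Figure D2:**
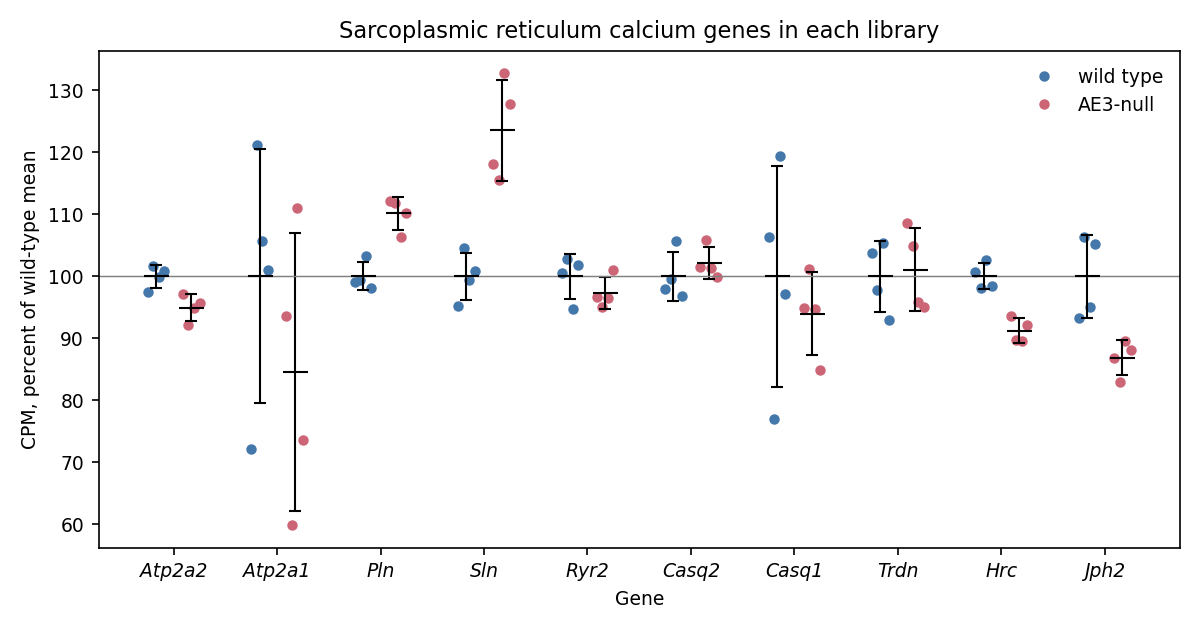
CPM of each gene in each library as a percent of that gene's wild-type mean. Points are libraries, 4 per genotype, and black marks are the mean and SD. Points of the 2 genotypes are fully apart for Atp2a2, Pln, Sln, Hrc and Jph2, and Atp2a1 and wild-type Casq1 are the most scattered.

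The promoters of Pln and Jph2 are shown because these 2 genes moved in opposite directions at nearly the same edgeR adjusted p (0.0116 and 0.0121). The sequences are from RefSeq on assembly GRCm38.p6, which held promoters for 7 of the 10 genes and none for Atp2a2, Sln or Trdn. Each is written 5′ to 3′ on the gene's strand and ends before the first annotated exon base. Capitals mark matches, on either strand, to an E-box (CANNTG), a GATA box (GATA), a MEF2 site (CTA and TAG separated by any 4 bases), an M-CAT site (CATTCC) or a TATA box (TATAAA).
Pln, chr10:53337436-53337666, plus strand, 231 bases: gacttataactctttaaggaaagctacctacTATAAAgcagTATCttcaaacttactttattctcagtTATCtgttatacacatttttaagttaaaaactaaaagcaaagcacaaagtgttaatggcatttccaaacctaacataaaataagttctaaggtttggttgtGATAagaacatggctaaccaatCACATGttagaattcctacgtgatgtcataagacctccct
Jph2, chr2:163398050-163398243, minus strand, 194 bases: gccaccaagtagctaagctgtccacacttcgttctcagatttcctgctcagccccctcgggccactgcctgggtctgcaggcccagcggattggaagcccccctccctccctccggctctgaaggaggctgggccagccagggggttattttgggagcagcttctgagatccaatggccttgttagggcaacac
The Pln stretch held 32.0% G and C and the Jph2 stretch 61.3%. In the Pln stretch there were 3 GATA matches, 1 E-box and 1 TATA box match, none overlapping another. Counted back from the end of the stretch, the TATA box match began at -200, the GATA matches at -190, -163 and -62, and the E-box at -40. In all 32851 promoters of the table, a window of the same length held a GATA match in 52.0%, an E-box in 63.6% and a TATA box match in 11.8%. The Jph2 stretch held none of the 5 motifs, against 47.4% of promoters with a GATA match and 58.0% with an E-box in a window of that length. MEF2 and M-CAT matches were in neither stretch. They were in 3.01% and 11.8% of windows of the Pln length and in 2.52% and 10.4% of windows of the Jph2 length, and TATA box matches in 8.90% of the latter. A match describes these letters and not a bound site.

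Phospholamban, Pln (Entrez 18821), the main brake on SERCA2 in the ventricle, rose by 10.2%. Wild-type replicates 1 to 4 had 5370.4, 5387, 5597 and 5317 CPM, and AE3-null replicates 1 to 4 had 6076, 6063, 5765 and 5969 CPM. Every AE3-null library was above every wild-type library, the nearest being AE3-null replicate 3 and wild-type replicate 3. The mean went from 5418 ± 123 to 5968 ± 144 CPM (SD, n = 4; log2 0.14, SE 0.0303, edgeR adjusted p 0.0116, 95% interval 0.075 to 0.20). In the GENCODE annotation a predicted gene on the opposite strand, Gm47644, shares a stretch of 1312 exon bases with Pln. Whether counting used strand is not given in the sources used here, so reads of that gene cannot be told apart from those of Pln. Shorter overlaps of 101, 83 and 44 exon bases with opposite-strand genes are annotated for Casq1, Atp2a2 and Atp2a1.

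Sarcolipin, Sln (Entrez 66402), the inhibitor expressed mainly in the atria of the mouse heart, rose by 23.7%. Wild-type libraries had 152, 167, 159 and 161 CPM, and AE3-null libraries had 189, 185, 212 and 204 CPM. The lowest AE3-null library, replicate 2, was above the highest wild-type library, also replicate 2, and AE3-null replicates 3 and 4 were higher than AE3-null replicates 1 and 2. The mean went from 159.95 ± 6.15 to 198 ± 13.0 CPM (SD, n = 4; log2 0.31, SE 0.0460, edgeR adjusted p 0.000876, 95% interval 0.21 to 0.40). This was the largest change among the 10 genes.

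Atrial markers moved with Sln. Of 8 atrial cardiomyocyte markers (Myl7, Myl4, Nppa, Mybphl, Bmp10, Kcnj3, Kcnj5 and Gja5), 7 rose and Bmp10 was not called, against 3.16% of all tested genes called higher. This list was chosen with earlier results of these data known, so the contrast with that share is no independent support. The median log2 fold change of the 8 markers was 0.42. Their summed level was 2949 to 3483 CPM in wild-type and 3929 to 4528 CPM in AE3-null libraries, and none of the 8 was at 0. The sum of 5 ventricular markers (Myl2, Myl3, Irx4, Hey2 and Mpped2) overlapped between genotypes, at 9426 to 9725 and 9248 to 9993 CPM. Myl2 and Myl3 made up most of that sum, at wild-type means of 5114 and 4401 CPM. By edgeR 0 of the 5 were called, and 2 were higher at an unadjusted p under 0.05. These were Irx4, which did not overlap between genotypes (log2 0.19, edgeR adjusted p 0.0507), and Mpped2 (log2 0.20, edgeR adjusted p 0.162). Divided by the summed atrial marker counts of the same library, Sln was at 5.16, 4.80, 5.25 and 5.10% in wild-type replicates 1 to 4 and at 4.70, 4.70, 4.87 and 4.52% in AE3-null replicates 1 to 4. The groups overlapped, and the difference in mean log2 ratio, AE3-null minus wild type, was -0.11 and did not pass an exact two-sided permutation test (p = 0.0571, 0.114 adjusted over the 6 ratios compared). Without wild-type replicate 2 the difference was -0.14 and the genotypes did not overlap (exact permutation p = 0.0286, the smallest then possible). That library was the only wild-type one inside the AE3-null range, so leaving it out fixed this separation in advance. The value therefore adds no support. Most of the atrial sum was Nppa, at a mean of 2076 of 3156 CPM in wild-type and 2781 of 4211 CPM in AE3-null libraries. Sln counts were thus higher against the library total. Against this sum, which is largely Nppa, their mean was lower in AE3-null libraries. Myl1, a myosin light chain gene used by atria and fast fibres that is not on the list and was chosen after its values were seen, moved the other way (log2 -2.21, edgeR adjusted p 4.61e-12).

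The pump gene of the heart did not overlap between genotypes, but its difference did not pass the test. Atp2a2 (Entrez 11938) had 20254, 21128, 20753 and 20936 CPM in wild-type replicates 1 to 4 and 20194, 19122, 19699 and 19866 CPM in AE3-null replicates 1 to 4. The highest AE3-null library, replicate 1, lay just under the lowest wild-type library, also replicate 1. The log2 fold change of -0.075 (SE 0.0285, 95% interval -0.13 to -0.014) was in the negative direction and was not called over all genes (edgeR adjusted p 0.134). Atp2a1 (Entrez 11937) was barely detected, with 10 to 40 counts per library. Its log2 fold change of -0.20 had a 95% interval of -0.66 to 0.27, and no difference was detectable (edgeR adjusted p 0.672). Single libraries moved it by over 1.5 times. Among wild-type libraries, leaving out replicate 1 gave -0.32 and leaving out replicate 2 gave -0.098. Among AE3-null libraries, leaving out replicates 2, 3 and 4 in turn gave -0.12, -0.33 and -0.10.

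Counts of 2 genes in the same library were also divided by each other, which needs no library scaling. Pln reads were 26.5, 25.5, 26.97 and 25.4% of Atp2a2 reads in wild-type replicates 1 to 4 and 30.1, 31.7, 29.3 and 30.0% in AE3-null replicates 1 to 4. The ratio was higher in 4 of 4 AE3-null libraries than in any wild-type library, by 0.21 on the log2 scale (SD 0.0426 in wild type and 0.0485 in AE3-null, n = 4; exact two-sided permutation p = 0.0286). Sln reads were 0.752, 0.791, 0.766 and 0.770% of Atp2a2 reads in wild-type and 0.935, 0.966, 1.08 and 1.03% in AE3-null libraries. This ratio was higher by 0.38 on the log2 scale, again in 4 of 4 libraries (exact two-sided permutation p = 0.0286). Both separations were fixed in advance by the single-gene levels. In every AE3-null library Pln and Sln lay above, and Atp2a2 below, every wild-type library. The 2 ratios are therefore no further support beyond the single genes. The value 0.0286 is the smallest p that 70 assignments of 4 against 4 libraries allow. Adjusted over the 6 ratios both became 0.0857. With only 2 of the 6 at the smallest p, no adjusted value could have fallen under 0.05. Missing the threshold therefore says nothing about these 2 ratios. The ratios of Atp2a1 to Atp2a2 (log2 difference -0.18, p = 0.457), Casq1 to Casq2 (-0.11, p = 0.486) and Casq2 to Ryr2 (0.069, p = 0.314) overlapped between genotypes and did not pass the same exact test. With single libraries left out the Atp2a1 to Atp2a2 difference lay between -0.33 and -0.043, the extremes being reached by dropping AE3-null replicates 3 and 2, and did not pass the test in any of the 8.

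**Figure D3:**
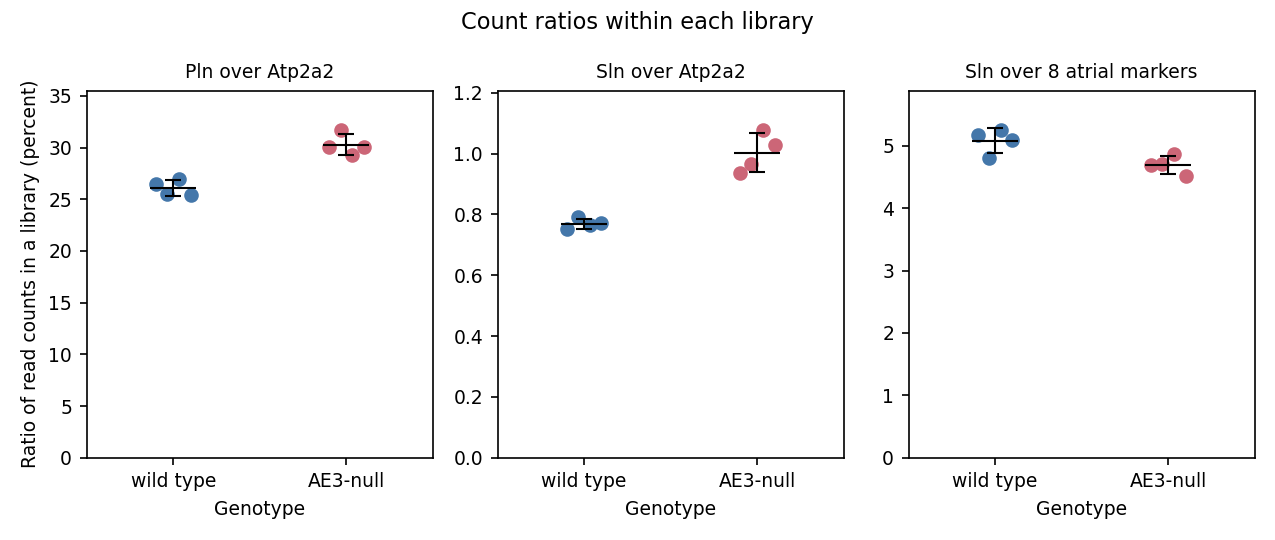
Read count ratios within each library, in percent, for Pln over Atp2a2, Sln over Atp2a2 and Sln over the sum of 8 atrial markers. Points are libraries and black marks the mean and SD of 4. The first pair of ratios is higher in every AE3-null library, and the ratio of Sln to atrial markers overlaps between genotypes and is lower on average in AE3-null libraries.

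The release channel gene Ryr2 (Entrez 20191), the ryanodine receptor of the heart, overlapped between genotypes. It had 3177, 3249.9, 2992 and 3217 CPM in wild-type replicates 1 to 4 and 3056, 3005, 3047 and 3192 CPM in AE3-null replicates 1 to 4, and the lowest library of all was wild-type replicate 3. Its log2 fold change was -0.039 with a 95% interval of -0.11 to 0.032 (edgeR adjusted p 0.556), an interval that spans changes of -7.35% to 2.27%.

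Junctophilin 2, Jph2 (Entrez 59091), tethers the store to the surface membrane at the sites of calcium release and was lower by 13.1%. Wild-type replicates 1 to 4 had 821, 936, 837 and 927 CPM and AE3-null replicates 1 to 4 had 765, 729.8, 789 and 775 CPM. All AE3-null libraries were below all wild-type libraries, and the wild-type libraries formed a higher pair, replicates 2 and 4, and a lower pair, replicates 1 and 3. The mean went from 880.2 ± 59.3 to 765 ± 25.2 CPM (SD, n = 4; log2 -0.20, SE 0.0440, edgeR adjusted p 0.0121, 95% interval -0.30 to -0.11). Without wild-type replicate 4 the log2 fold change was -0.18 and was no longer called (edgeR adjusted p 0.0536).

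Hrc (Entrez 15464), the histidine-rich calcium-binding protein of the store, was lower by 8.74%. It had 1374, 1339, 1399 and 1342 CPM in wild-type replicates 1 to 4 and 1277, 1223, 1222 and 1255 CPM in AE3-null replicates 1 to 4, with no overlap. Its replicates were among the tightest of the 10 genes, with a coefficient of variation of 2.08% in wild-type hearts and 2.15% in AE3-null hearts. The mean went from 1363 ± 28.4 to 1244 ± 26.8 CPM (SD, n = 4; log2 -0.13, SE 0.0312, edgeR adjusted p 0.0183, 95% interval -0.20 to -0.066). The call was lost without wild-type replicate 1 or AE3-null replicates 2, 3 or 4, with edgeR adjusted p-values of 0.0537, 0.0608, 0.0656 and 0.0519, while the log2 fold change stayed between -0.14 and -0.12 in these 4 fits.

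The cardiac calsequestrin Casq2 (Entrez 12373), the main calcium buffer of the store in heart muscle, overlapped between genotypes, with 782, 796, 844 and 773 CPM in wild-type replicates 1 to 4 and 811, 846, 809 and 798 CPM in AE3-null replicates 1 to 4. Its log2 fold change was 0.030 (95% interval -0.045 to 0.11, edgeR adjusted p 0.690). Casq1 (Entrez 12372) had 96.2, 69.6, 108 and 87.8 CPM in wild-type and 85.7, 91.5, 85.6 and 76.8 CPM in AE3-null replicates 1 to 4. The wild-type libraries enclosed all AE3-null libraries, with a wild-type coefficient of variation of 17.8% against 3.97% for Casq2. The log2 fold change of Casq1 was -0.095 (95% interval -0.41 to 0.22, edgeR adjusted p 0.756). It was -0.20 when wild-type replicate 2 was left out and 0.0014 when wild-type replicate 3 was. The summed level of 10 skeletal muscle markers overlapped too, at 259 to 283 CPM in wild-type and 250.1 to 268 CPM in AE3-null libraries. Most of that sum came from 4 genes: the fast myosin heavy chains Myh1 (130.2 to 151 CPM over the 8 libraries), Myh4 (34.8 to 42.9 CPM) and Myh2 (26.5 to 33.4 CPM), and the fast myosin-binding protein gene Mybpc2 (42.6 to 60.1 CPM). Tnnc2 and Pvalb, also genes of fast fibres, stayed under 10 counts in every library. Mylpf (2 to 16 counts) and Tnnt3 (3 to 16 counts) were under the filter too. Tnni2 and Actn3 were low, at wild-type means of 0.613 and 2.64 CPM. By edgeR 0 of the 6 tested markers was called, and 1, Mybpc2, was lower at an unadjusted p under 0.05 (log2 -0.21, edgeR adjusted p 0.0988). Myl1, which is used by fast fibres and atria and is not on the list, fell (log2 -2.21, edgeR adjusted p 4.61e-12). The part of these levels in the values of Casq1 and Atp2a1 was not tested.

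Triadin, Trdn (Entrez 76757), the membrane protein that anchors calsequestrin to the release channel, had 259.6, 245, 264 and 233 CPM in wild-type replicates 1 to 4 and 272, 262, 239.8 and 238 CPM in AE3-null replicates 1 to 4. The groups overlapped, with a log2 fold change of 0.015 (95% interval -0.092 to 0.12, edgeR adjusted p 0.904). One feature was picked out after the values were seen. In both genotypes the 2 libraries with the most Jph2 were the 2 with the least Trdn, namely wild-type replicates 2 and 4 and AE3-null replicates 3 and 4.

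Genes that work alongside these 10 were called no more often than tested genes in general. A list of 62 further genes of the calcium store and its control was read from the same fit. Of these 61 had a row, 57 passed the filter, 2 rose and 0 fell by edgeR. DESeq2 called 1 lower and limma voom 0, and at an unadjusted edgeR p under 0.05 6 were lower and 6 higher. By edgeR, 3.51% of them were called, against 6.47% of all tested genes, with a median log2 fold change of -0.00792. Genotypes did not overlap for 7 of the 57, a share close to the 12.2% of all tested genes. Ryr1, Jph3, Mrln and Smim6 were under the filter, and Strit1 was not analysed here.

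Among 16 tested partners of the release channel and of the dyad, the cleft where store and surface membrane meet, 1 rose. Cav3, the muscle caveolin that shapes surface membrane invaginations, had 56.9, 57.4, 57.6 and 55.3 CPM in wild-type replicates 1 to 4 and 62.2, 64.8, 67.1 and 64.0 CPM in AE3-null replicates 1 to 4. The genotypes did not overlap (log2 0.18, SE 0.0427, edgeR adjusted p 0.0172). The call was lost without wild-type replicate 4 or AE3-null replicates 3 or 4, with edgeR adjusted p-values of 0.0667, 0.0600 and 0.0528. Jph1, the junctophilin of skeletal muscle, had a positive log2 fold change of 0.17 that was not called (edgeR adjusted p 0.0921).

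Of 19 tested kinase, phosphatase and phosphodiesterase genes, 1 rose. Camk2d, the main cardiac isoform of the calmodulin-dependent kinase that phosphorylates phospholamban and the release channel, had 226, 226, 233 and 217 CPM in wild-type replicates 1 to 4 and 235, 249.99, 254 and 258 CPM in AE3-null replicates 1 to 4. The genotypes did not overlap, though AE3-null replicate 1 lay close to wild-type replicate 3 (log2 0.14, SE 0.0381, edgeR adjusted p 0.0336). Leaving out any library other than wild-type replicate 3 or AE3-null replicate 1 ended the call, with edgeR adjusted p-values of 0.0669 to 0.120. The largest log2 fold change of the whole list, 0.49, was that of Ppp1r1a, an inhibitor of protein phosphatase 1, at a mean of 1.26 CPM in wild-type and 1.70 CPM in AE3-null hearts. It was not called (SE 0.208, edgeR adjusted p 0.187), and it was chosen after its values were seen, as was Jph1.

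In the other groups 0 genes were called by edgeR. The groups held 8 luminal calcium-binding genes, 3 genes of another pump and of pump regulators, and 11 genes of IP3 receptors, store-operated entry and leak. In these groups 2, 0 and 2 genes had an unadjusted edgeR p under 0.05. Their nearest members were Calr, the chaperone calreticulin, Tmx1, a redox enzyme that acts on the pump, and Orai3, a store-operated channel subunit. Calr had 354, 348, 284 and 329 CPM in wild-type replicates 1 to 4 and 286, 285, 301 and 281 CPM in AE3-null replicates 1 to 4, with wild-type replicate 3 inside the AE3-null range (log2 -0.19, SE 0.0590, edgeR adjusted p 0.0830). Without wild-type replicate 3 its log2 fold change was -0.25 and it was called (edgeR adjusted p 0.000297). That fit called more genes in general, 818 higher and 906 lower over all tested genes. With any other single library left out Calr was not called (edgeR adjusted p 0.104 or more). Orai3 did not overlap between genotypes, at 26.6, 26.98, 26.2 and 26.8 CPM against 24.7, 22.4, 22.6 and 24.1 CPM, and was just outside the threshold (log2 -0.18, SE 0.0541, edgeR adjusted p 0.0624). Tmx1 overlapped, at 76.5, 72.8, 72.3 and 59.8 CPM against 83.3, 89.7, 83.9 and 65.7 CPM (log2 0.19, SE 0.112, edgeR adjusted p 0.387).

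**Figure D4:**
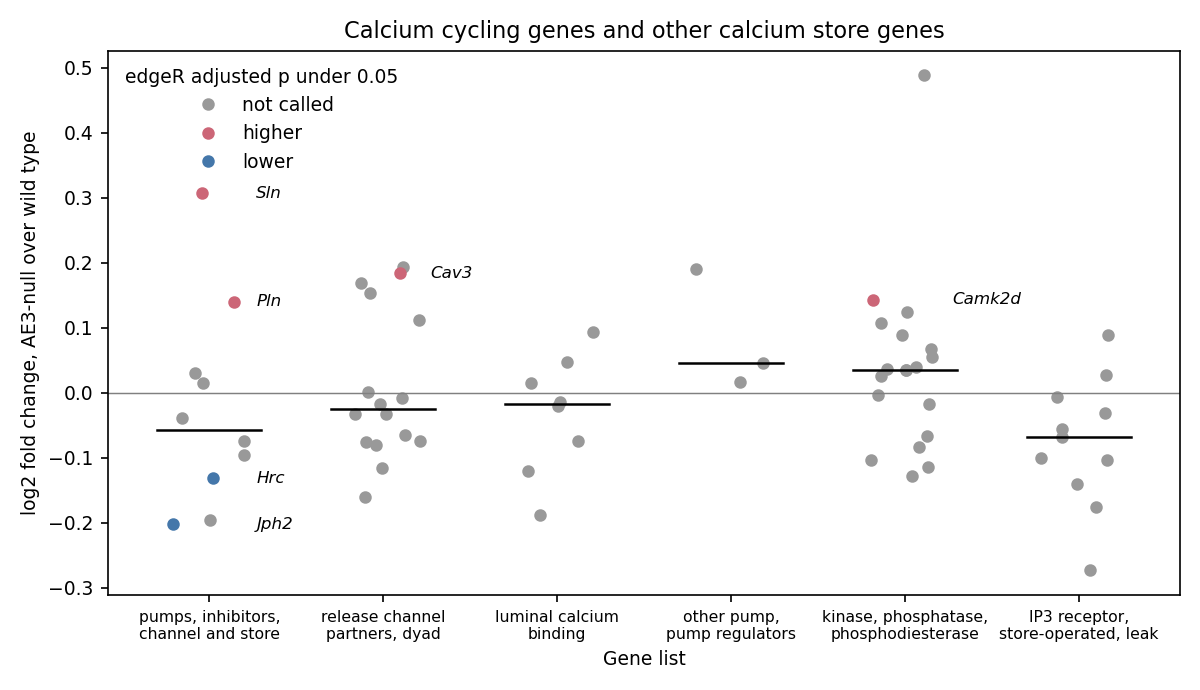
Log2 fold change of AE3-null over wild type for the 10 calcium cycling genes and for the 57 tested further genes in 5 groups. Each point is a gene, horizontal lines are medians, and the 6 named genes are those called by edgeR. Called genes stand at -0.20 for Jph2 to 0.31 for Sln, and most further genes lie near 0.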

How the data were processed

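RNA-seq libraries of 4 wild-type and 4 AE3-null mouse hearts were used. The authors deposited whole-number read counts for each gene and library, without normalization. The submitters' processing notes name bcl2fastq, CASAVA 1.8, TopHat, DESeq and the mm9 genome build. How reads were counted, on which annotation and with which strand setting is not given in the sources used here. Entrez numbers were matched to symbols in a RefSeq table of GRCm38.p6 (23185 of 23282).

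Groups came from the library titles. Genes were kept with edgeR's filterByExpr (minimum count 10), scaled by TMM, and tested across 14136 genes with the quasi-likelihood test of edgeR (glmQLFit, robust, no covariates, all 8 libraries) with Benjamini-Hochberg adjustment over those genes. Called means an adjusted p under 0.05. A standard error is the fold change divided by the square root of F. Count ratios were compared by exact two-sided permutation of the mean log2 ratio. Precision depended on the spread between libraries as well as on library totals of 9133628 to 27078351 counts. On simulated counts for AE3-null against wild type (14136 genes), edgeR found 25 of 50 genes raised 1.25-fold, and at 1.5-fold and 2-fold it found 40 and 49 of 50.

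The 10 genes, the further genes and the markers were chosen with earlier results of these data known. The text names all 10 genes, Slc4a3 and, per group of further genes, up to 4 called genes with the smallest p, or the nearest one where none was called. Myl1, Jph1, Ppp1r1a and the single markers named were picked outside that rule, after their values were seen. Alternatives were RLE or total-count scaling, no filter or a minimum count of 50, DESeq2, limma voom, a replicate block and each library left out; for ratios, an offset of 0.5 counts, a sign-flip test and each library left out. No library was a copy of another: chi-square per gene was 2.51 or more for every pair within a genotype. Fits used DESeq2 1.42.0, limma 3.58.1 and edgeR 4.0.16 under R 4.3.3.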

Additional observations from a re-analysis of the deposited data

Results flagged for a closer look

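The ratio of Casq2 to Ryr2 reads in wild-type replicate 3 was 28.2%, while the other wild-type libraries were at 24.0% to 24.6%. That library stood farther from its group than a test for a single outlying sample allows; chance flags about 1 in 20 groups, and 44 groups were checked. Without that library the log2 difference of the ratio was 0.12, against 0.069 with it (exact permutation p = 0.0571 and 0.314).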

How the results depend on the processing

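Pln and Sln kept their direction and call in all 15 alternatives, with log2 fold changes of 0.13 to 0.16 and 0.27 to 0.34 and adjusted p-values of at most 0.0468 and 0.00644. Hrc (-0.14 to -0.11) and Jph2 (-0.23 to -0.17) kept their direction, and their calls were lost in 4 and 1 of the 15, all with 1 library left out. With single libraries left out, 1 to 2 of the 10 genes fell, the median of the 10 was -0.059 to -0.030, and 0 to 3 further genes rose and 0 to 2 fell. DESeq2 called 1 further gene lower, Calr (adjusted p 0.0494), and with total counts only the median of the further genes was 0.0124. The uncalled genes Casq1 and Trdn changed sign. Casq1 ranged from -0.20 to 0.0014 with single libraries left out, the highest being without wild-type replicate 3 (0.0014), and Trdn from -0.020 to 0.044, negative without wild-type replicate 4 (-0.017) or AE3-null replicate 1 (-0.020); the cause was not tested. Over all tested genes, leaving out 1 library gave 214 to 818 higher and 193 to 906 lower genes, the most being without wild-type replicate 3. With single libraries left out the log2 difference of Casq1 to Casq2 ranged from -0.22 to -0.041 and that of Sln to atrial markers from -0.14 to -0.094. Both passed the exact permutation test, before adjustment over the ratios, without wild-type replicate 2 (p = 0.0286 each, the smallest then possible). For both ratios that library was the only wild-type one not above every AE3-null library. Leaving it out therefore fixed these separations in advance, and they add no support. Same-numbered libraries share only a number: their deviations correlated by -0.0397 to 0.162, and 2 of the 8 libraries correlated best with their own number. With the replicate block 2 of the 10 genes rose and 2 fell, 3 further genes rose, Tmx1 being added (adjusted p 0.0214), and 485 of all tested genes were higher and 517 lower. In the replicate block of the ratios, Pln to Atp2a2 (0.21) and Sln to Atp2a2 (0.38) had an exact sign-flip p of 0.125, the smallest that 4 pairs allow. Atp2a1 had the fewest counts of the 10 genes and the widest interval.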
